A study of Mus musculus with 17 samples.

Results

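The lysosome and proton pump genes described here are 42 genes taken as a list by name. The rule sets no threshold on a measured value, but the list was drawn up with earlier results of these data known. All 42 were found in the count table, which lists 55401 gene identifiers, and all 42 passed the filter on low counts in every comparison. By role they are 15 lysosomal hydrolases, 12 genes of the lysosomal membrane, enzyme cofactors and cargo, 12 genes of the proton pump, and the 3 transcription factors Tfeb, Tfe3 and Mitf. They were measured by RNA sequencing in 17 libraries of primary mouse bone marrow-derived macrophages, which are macrophages grown from marrow precursors in culture. In C57BL/6J cells there were 3 control libraries, 3 of cells in medium conditioned by B16F10 cells (a mouse melanoma line), 3 of cells in that medium with added KCl and 2 of cells in that medium with added NaCl. Treatment lasted 6 hours, and each salt reached 40 mM. What the control cells were given is not stated in the labels. The other 6 libraries came from cells in the conditioned medium with KCl described as isotonic. In 3 of them the cells carried Kcnj2f/f alone (floxed cells), and in 3 they carried Lyz2-Cre-Kcnj2f/f (knockout cells). The product of Kcnj2 is Kir2.1, an inwardly rectifying potassium channel, and Lyz2-Cre drives recombination in myeloid cells, macrophages included.

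Lysosomes are acidic organelles in which hydrolases break down proteins, lipids and sugars taken up by phagocytosis or delivered by autophagy, and macrophages hold many of them. The vacuolar proton pump acidifies them: its peripheral sector splits ATP in the cytosol and its membrane sector carries protons into the lumen. TFEB, TFE3 and MITF are related transcription factors that bind E-box sequences near many lysosomal genes, and their activity is known to be set largely by phosphorylation at the lysosome surface and movement to the nucleus, which RNA levels do not report.

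The E-box core CACGTG and its extension GTCACGTG, letters of the element through which TFEB is known to act, were searched on both strands in promoter windows from RefSeq (build GRCm38.p6), each from 250 bases before to 50 bases after a transcription start. A window was found for 35 of the 42 genes. Those not matched were Ctsb, Ctsh, Npc1, Atp6v0d2, Atp6v1b2, Atp6v1c1 and Atp6v1h. CACGTG was present in 9 of the 35 (25.7%) and in 8.09% of the 27025 genes with a window. GTCACGTG, which contains CACGTG, was present in 6 of the 35 (17.1%) and in 2.55% of all. The longer form, with GT directly before CACGTG and AC directly after it, was also searched. It was present in 0 of the 35 and in 0.37% of all. These counts describe letters in a window and were not tested. The stretches around the matches are shown because they are the regulatory letters that the list's transcription factors are known to recognise. Those shown lie before the RefSeq start of their window and read 5′ to 3′ on the gene's strand. Other annotated starts can lie further upstream, as for Ctsa. Capitals mark CACGTG with an adjoining GT or AC where it completes GTCACGTG on either strand.
Lamp1, chr8:13159089-13159160, plus strand: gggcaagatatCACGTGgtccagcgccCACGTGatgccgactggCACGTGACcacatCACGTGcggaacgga
Mcoln1, chr8:3500435-3500464, plus strand: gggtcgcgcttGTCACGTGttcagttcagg
Mcoln1, chr8:3500463-3500492, plus strand: ggcgccccgctCACGTGACcgcggcgcatg
Atp6v0b, chr4:117887331-117887378, minus strand: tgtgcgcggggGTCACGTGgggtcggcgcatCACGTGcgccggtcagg
Atp6v1a, chr16:44139374-44139401, minus strand: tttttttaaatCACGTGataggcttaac
Ctsd, chr7:142388054-142388077, minus strand: tccccCACGTGACctgtatccagt
Ctsd, chr7:142387907-142387936, minus strand: cgcccgcgtctCACGTGACccgttgagggc
Ctsa, chr2:164833748-164833772, plus strand: atgagcaaactGTCACGTGatgcag
Ctsl, chr13:64370740-64370767, minus strand: gcgttagaagcCACGTGctgatctaaat
Gaa, chr11:119267812-119267839, plus strand: ttctgtgcgatCACGTGtttgactctga
Glb1, chr9:114401017-114401046, plus strand: gctgcttctgaGTCACGTGgcctacagagg
Lamp1 held 4 matches, the most of the stretches shown, and Atp6v0b, Mcoln1 and Ctsd held 2 each. Ctsa held a second match, at base 5 after the start, which is not shown.

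Library totals ran from 13503869 to 19391623 counts, and levels are given in CPM, the count of a gene as a share of its library's total after TMM scaling over all 17 libraries. Macrophage markers summed to 26100 to 30100 CPM in every library outside the knockout and to 13200 to 14400 CPM in the knockout, where Lyz2 itself was low. Of 8 melanoma cell markers, Tyr, Dct and Slc45a2 were at 0 counts in all 17 libraries, and the 7 other than Gpnmb summed to 0.424 to 1.23 CPM. The sum of stromal markers ranged over 583 to 722 CPM in control libraries, 505 to 560 CPM in those of conditioned medium, 313 to 485 CPM under KCl and 500 to 556 CPM under NaCl. It was 253 to 508 CPM in the floxed libraries and 183 to 250 CPM in those of the knockout. Lymphoid markers summed to 4.44 to 12.1 CPM. Neutrophil markers summed to 7.43 to 9.13 CPM in control and 9.15 to 30.1 CPM elsewhere, with Retnlg at 0 throughout. Libraries also differed in how their counts followed transcript length. This length slope, the change in log2 CPM per log2 base of length relative to the mean library, was 0.060 to 0.115 in control, 0.032 to 0.088 in conditioned medium and 0.076 to 0.122 with NaCl. It was −0.079, −0.105 and 0.008 in KCl libraries 1, 2 and 3, 0.116, −0.169 and −0.098 in the floxed libraries, and −0.149, −0.131 and −0.014 in the knockout libraries. KCl libraries 1 and 2, floxed libraries 2 and 3 and knockout libraries 1 and 2 thus had lower slopes than the remaining library of their groups. The value from that library alone, assumed to vary like the other groups, is given for named genes where it ended a call or moved a called value by over 1.5 times.

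The 42 genes spanned a wide range of abundance. In conditioned medium the highest levels per kilobase of exon were those of Psap, the precursor of the saposins that help degrade sphingolipids (2298 ± 46 CPM per kb), and Ctsd, the aspartic protease cathepsin D (2221 ± 72 CPM per kb, SD, n = 3). Next came the cysteine proteases Ctsb (1375 CPM per kb) and Ctsz (1048 CPM per kb) and the autophagy receptor Sqstm1 (1018 CPM per kb). The lowest were Mcoln1, the lysosomal calcium channel (7.77 CPM per kb), and Tfeb (4.98 CPM per kb). Among the pump genes the proteolipid Atp6v0b stood highest (335.9 CPM per kb) and Atp6v0a1 lowest (16.8 CPM per kb). Sqstm1 stood at 168 CPM per kb in control and at 2099 CPM per kb with KCl. Summed over the 42 genes, the level was 47460 to 48110 CPM in control and 47360 to 48520 CPM in conditioned medium, so these 2 groups overlapped. It reached 66090 to 68830 CPM under KCl and 56620 to 57300 CPM under NaCl. The floxed libraries held 57700 to 63850 CPM and those of the knockout 67430 to 73530 CPM, with no library of these groups as low as those of control or conditioned medium. In this order the place of control, and that of floxed cells beside NaCl, rest on the TMM scaling. Under either scaling the KCl, NaCl, floxed and knockout libraries all lay above those of conditioned medium. The KCl libraries also lay above those of NaCl, and the knockout libraries above the floxed ones. With library totals alone the 3 control libraries held 62500 to 63290 CPM and those of conditioned medium 49470 to 49680 CPM. The KCl libraries then held 57170 to 62020 CPM and the NaCl libraries 56410 to 56580 CPM, with 54370 to 57140 CPM in floxed and 62090 to 64710 CPM in knockout libraries, so control then lay above conditioned medium, both salts and the floxed cells. In bulk samples such as these, fewer cells of a type and less RNA per cell cannot be told apart.

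**Figure D1:**
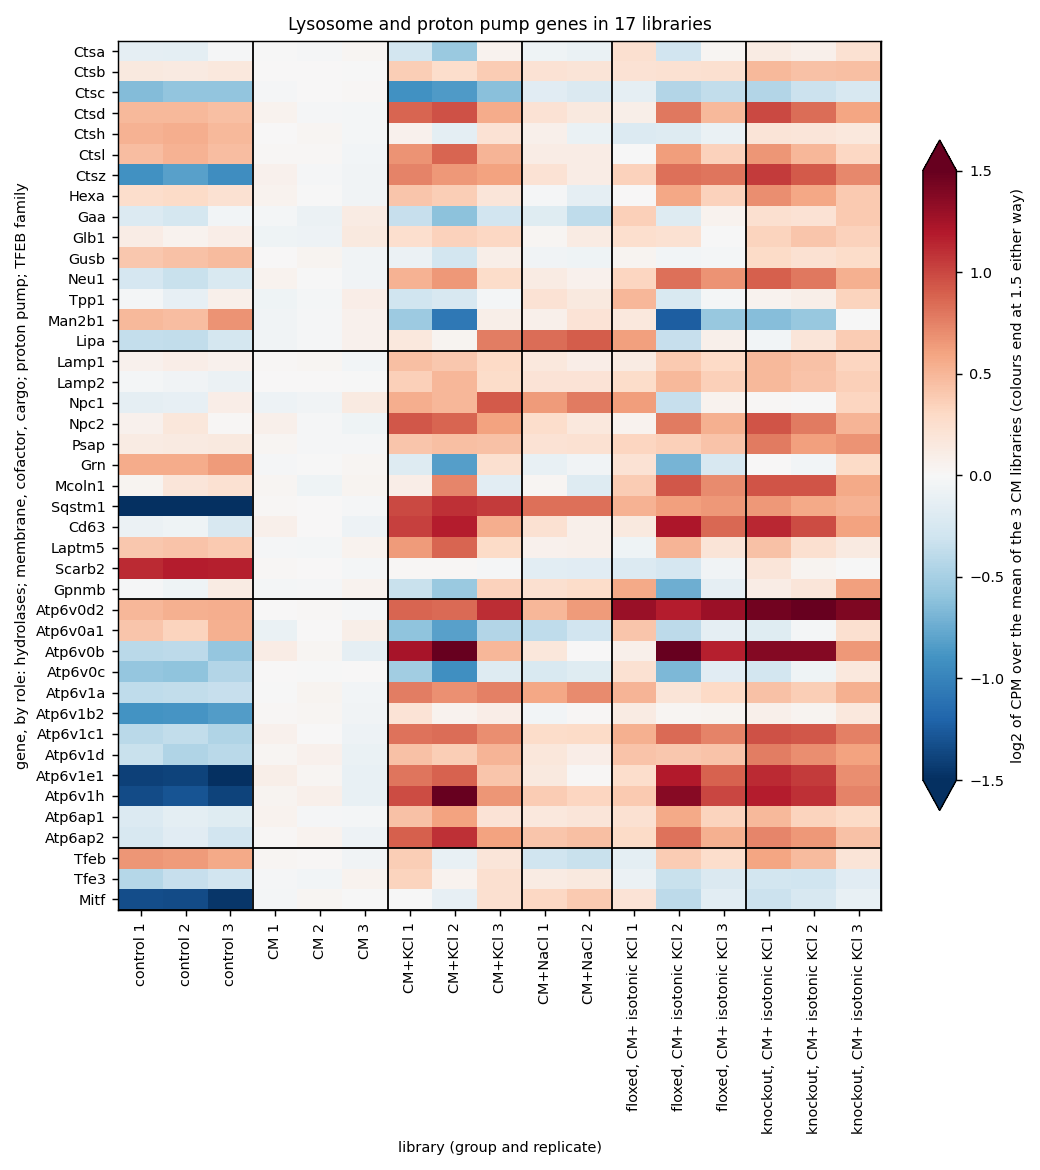
Level of each of the 42 genes (rows, by role) in each of the 17 libraries (columns), as log2 of CPM over the mean of the 3 conditioned medium libraries. Sqstm1 is lowest in the 3 control libraries, and Atp6v0b and Atp6v1h differ among the KCl and among the floxed libraries.

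Conditioned medium was first set against control. Genes of the list moved in both directions, with more pump genes called higher than lower and more hydrolases called lower than higher. Of the 42 genes 13 were higher and 13 lower at an adjusted p under 0.05 (edgeR's quasi-likelihood test, Benjamini-Hochberg over all genes tested), against a background of 53.5% of all 14519 genes tested, 27.2% higher and 26.4% lower. The median log2 fold change was 0.05 over the 42 genes and −0.04 over all genes. By role, 7 of 12 pump genes were higher and 2 lower, 3 of 15 hydrolases higher and 7 lower, 1 of 12 membrane, cofactor and cargo genes higher and 3 lower, and 2 of the 3 transcription factors higher and 1 lower. With scaling by library totals alone, 7 were higher and 20 lower, and the median of all genes was −0.37.

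Among the transcription factors, Mitf stood at 71.8, 71.6 and 66.1 CPM in control and at 178, 184.5 and 181 CPM in conditioned medium. All treated libraries were more than 2 times as high as all controls, and Mitf rose (log2 fold change 1.37, SE 0.09, adjusted p = 2.75e-08, edgeR). Tfeb was at 44.5, 44.0 and 41.8 CPM in control and 28.7, 28.6 and 27.3 CPM in conditioned medium. Its groups did not overlap, in the direction opposite to Mitf, and Tfeb fell (−0.63, SE 0.11, adjusted p = 2.41e-04). Tfe3 was at 132, 139 and 145 CPM in control and 175, 172 and 183 CPM in conditioned medium, without overlap, and rose (0.35, SE 0.08, adjusted p = 0.00299). With scaling by library totals alone the log2 fold change of Tfe3 was 0.01 (adjusted p = 0.949).

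Sqstm1 encodes sequestosome, which binds ubiquitinated cargo for autophagy and is also known as a target of the antioxidant regulator NRF2. It stood at 546, 567 and 575 CPM in control and at 3453, 3421 and 3374 CPM in conditioned medium. It was the most changed gene of the list (2.59, SE 0.06, adjusted p = 1.42e-12), each treated library lying far above each control. Of its exon bases 17.3% overlap Mrnip on the other strand, and whether the counting used strand is not given. Scarb2, the membrane protein that delivers glucocerebrosidase to lysosomes, was at 286, 299 and 297 CPM in control and at 134, 133 and 129 CPM in conditioned medium. Every treated library lay below every control, and Scarb2 fell (−1.16, SE 0.06, adjusted p = 3.28e-09). Grn, the progranulin precursor, was at 1194, 1195 and 1268 CPM in control and 801, 807 and 831 CPM in conditioned medium, without overlap. It fell (−0.59, SE 0.19, adjusted p = 0.0218), a call lost without control library 3 (0.0563) or conditioned medium library 1 (0.0551) or 2 (0.052). Laptm5, a lysosomal membrane protein of blood cells, also fell (−0.41).

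The major lysosomal membrane glycoproteins passed, of the settings tried, only with scaling by library totals alone. Lamp1 was at 1874, 1921 and 1868 CPM in control and 1813, 1826 and 1736 CPM in conditioned medium (−0.08, SE 0.07, adjusted p = 0.308, and −0.42, adjusted p = 8.08e-05 with library totals alone). Lamp2 was at 530.4, 524 and 512 CPM in control and 543, 542 and 541 CPM in conditioned medium (0.05, SE 0.07, adjusted p = 0.602). With scaling by library totals alone Lamp2 was lower (−0.29, adjusted p = 0.00114). Mcoln1 was at 60.1, 66.7 and 68.7 CPM in control and 59.8, 56.0 and 60.2 CPM in conditioned medium, where its groups overlapped (−0.16). Mcoln1 was lower with library totals alone (−0.50, adjusted p = 0.00917) and with only the 2 groups in the fit (adjusted p = 0.0286). Gpnmb, a glycoprotein of phagolysosomes that melanocytes also express, was at 4153, 4007 and 4584 CPM in control and 4126, 4138 and 4347 CPM in conditioned medium, overlapping as well.

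Pump genes that rose included several of the peripheral sector. Atp6v1e1, a stalk subunit, went from 241, 242 and 219.9 CPM to 677, 645 and 586 CPM (1.43, SE 0.11, adjusted p = 1.02e-07). The lowest treated library was over 2 times the highest control. Atp6v1h, a regulatory subunit, rose by a log2 of 1.34 (122 ± 3.61 to 310 ± 21.2 CPM, n = 3 and 3), and the nucleotide-binding subunits Atp6v1b2 (0.87) and Atp6v1a (0.36) rose too, as did Atp6v1c1 (0.40), Atp6v1d (0.39) and the proteolipid Atp6v0c (0.53). The calls on Atp6v1a, Atp6v1c1, Atp6v1d and Atp6v0c were lost with scaling by library totals alone. Atp6v0d2, the membrane-sector subunit known from osteoclasts and macrophages, went the other way, from 178, 182 and 184 CPM in control to 126, 128 and 124 CPM in conditioned medium. These groups did not overlap, and Atp6v0d2 fell (−0.54, SE 0.08, adjusted p = 8.49e-05), as did the membrane-sector subunit Atp6v0a1 (−0.44). The summed level of 8 osteoclast markers was 151 to 157 CPM in control and 274 to 286 CPM in conditioned medium, with Acp5 the most abundant. These markers did not move as a set. Of the 7 tested, 3 were higher (Acp5, Mmp9 and Dcstamp), Nfatc1 was lower (−0.96) and 3 were not called. Of all genes 27.2% were higher and 26.4% lower. The part of these markers in the pump genes' levels was not tested.

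Of the hydrolases, Ctsd was at 7336, 7319 and 7145 CPM in control and 5418, 5140 and 5110 CPM in conditioned medium. It fell without overlap (−0.48, SE 0.09, adjusted p = 4.26e-04). Gm49369 overlaps 34.4% of the exon bases of Ctsd on the same strand, so reads there cannot be told apart. Ctsh (−0.52), Ctsl (−0.49), the mannosidase Man2b1 (−0.55), the glucuronidase Gusb (−0.45), the hexosaminidase subunit Hexa (−0.27) and Ctsb (−0.15) fell as well. Those that rose were Ctsz (0.88), Ctsc (0.60), which activates granule proteases, and the sialidase Neu1 (0.26, but −0.08 with scaling by library totals alone). The calls on Man2b1 and Ctsb were lost when any 1 of the 6 libraries was left out, and that on Neu1 when control library 1 or 2 or conditioned medium library 1 or 2 was.

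**Figure D2:**
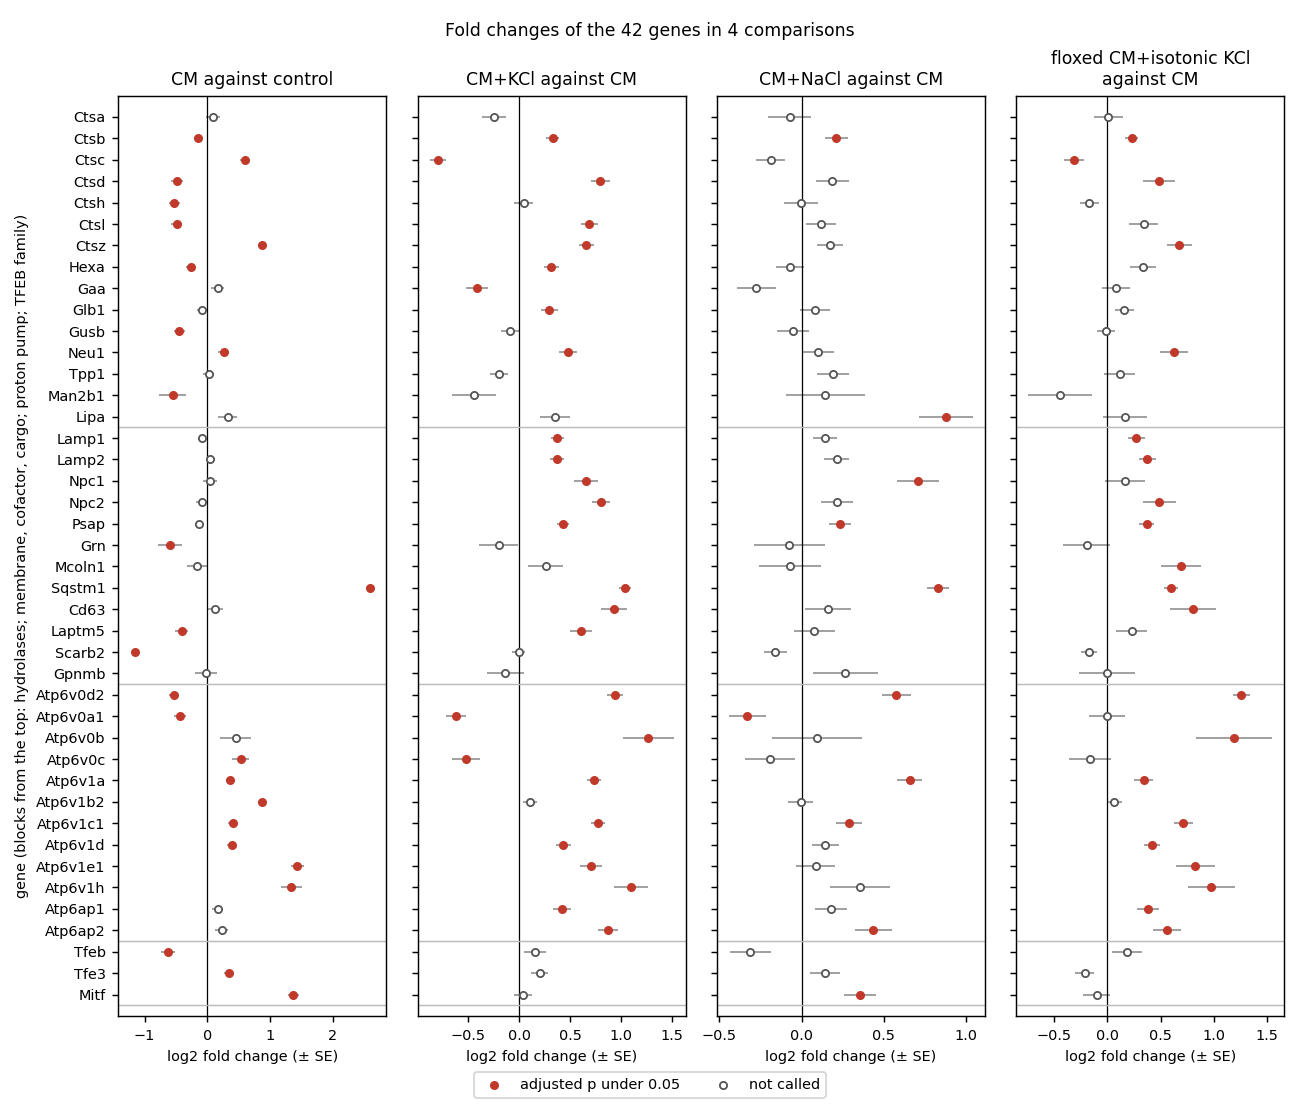
Log2 fold change (x, with SE) of each gene (y, by role) in 4 comparisons, filled where the adjusted p was under 0.05. In conditioned medium against control 13 genes lie on each side, and with KCl against conditioned medium 24 filled points lie to the right and 4 to the left.

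Adding KCl to the conditioned medium was then set against conditioned medium alone, which asks what 40 mM potassium chloride adds. Genes of every role but the transcription factors were among those called higher. Of the 42 genes 24 were higher and 4 lower, where 53.9% of all genes tested passed, 26.6% higher and 27.4% lower. The median log2 fold change was 0.36 over the 42 genes and −0.01 over all genes. By role, 9 of 12 pump genes were higher and 2 lower, 8 of 12 membrane, cofactor and cargo genes higher and none lower, and 7 of 15 hydrolases higher and 2 lower. None of the 3 transcription factors passed in this fit, at log2 fold changes of 0.04 to 0.20, though Tfe3 passed under several alternatives. In each of the 28 called genes all 3 KCl libraries lay beyond all 3 conditioned medium libraries. The same libraries gave the calls, so this separation adds no support, and its share over all genes was not counted. Log2 fold changes with KCl library 3 alone, assumed to vary like the other groups, are given below for some of the named genes. With the length slope as a covariate 22 were higher and 2 lower, and the calls on Neu1, Atp6ap1, Hexa, Laptm5 and Gaa were lost, besides those on Atp6v0b and Atp6v0c described next.

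Sqstm1 stood at 3453, 3421 and 3374 CPM in conditioned medium and at 6778, 7291 and 7069 CPM with KCl. The KCl libraries were close to each other and far above the others, and Sqstm1 rose again (1.03, SE 0.06, adjusted p = 3.04e-08, and 1.05 with KCl library 3 alone). Atp6v0d2 was at 126, 128 and 124 CPM in conditioned medium and 230.3, 226 and 270 CPM with KCl. All KCl libraries were higher than all of conditioned medium, and Atp6v0d2 rose (0.94, SE 0.08, adjusted p = 8.79e-07, and 1.11 with KCl library 3 alone). The 8 osteoclast markers summed to 189 to 204 CPM with KCl and 274 to 286 CPM in conditioned medium. Of the 7 tested, 5 were lower and 1 higher, where 27.4% of all genes were lower and 26.6% higher. Acp5, among the lower, was at 87.7 to 102 CPM with KCl against 142 to 153 CPM. Ctsk, the 1 higher, was at 38.7 to 39.1 CPM against 25.7 to 31.5 CPM. The part of these markers in the level of Atp6v0d2 was not tested.

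The subunit Atp6v0b was at 741, 699 and 627 CPM in conditioned medium and at 1615, 2423 and 967.5 CPM with KCl. All KCl libraries were higher, but library 2 stood far above library 3. Atp6v0b rose (1.26, SE 0.25, adjusted p = 0.00144), with a log2 fold change of 0.49 from KCl library 3 alone and 0.22 (adjusted p = 0.451) with the length slope as a covariate. Atp6v1h was at 319, 326 and 286 CPM in conditioned medium and 611.5, 910.3 and 489 CPM with KCl, in the same order of libraries. It rose by 1.10 (SE 0.17, adjusted p = 1.6e-04), and by 0.66 with KCl library 3 alone. The accessory protein Atp6ap2, also known as the prorenin receptor, rose by 0.87, and Atp6v1c1 (0.77), Atp6v1a (0.73), Atp6v1e1 (0.70), Atp6v1d (0.43) and the accessory protein Atp6ap1 (0.42) rose as well. With KCl library 3 alone Atp6v1e1 was 0.42 and Atp6ap1 0.21. Atp6v1b2 did not pass (0.11, adjusted p = 0.199). Both pump genes that fell belong to the membrane sector. Atp6v0a1 was at 103, 110.2 and 117.5 CPM in conditioned medium and 72.7, 62.6 and 81.3 CPM with KCl, without overlap (−0.62, SE 0.10, adjusted p = 1.69e-04). Atp6v0c was at 404, 398.5 and 402 CPM in conditioned medium and 280.3, 212 and 350.1 CPM with KCl, the third library being nearest to conditioned medium (−0.52, SE 0.14, adjusted p = 0.00537). For Atp6v0c the log2 fold change was −0.19 with KCl library 3 alone and −0.08 (adjusted p = 0.665) with the length slope as a covariate.

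**Figure D3:**
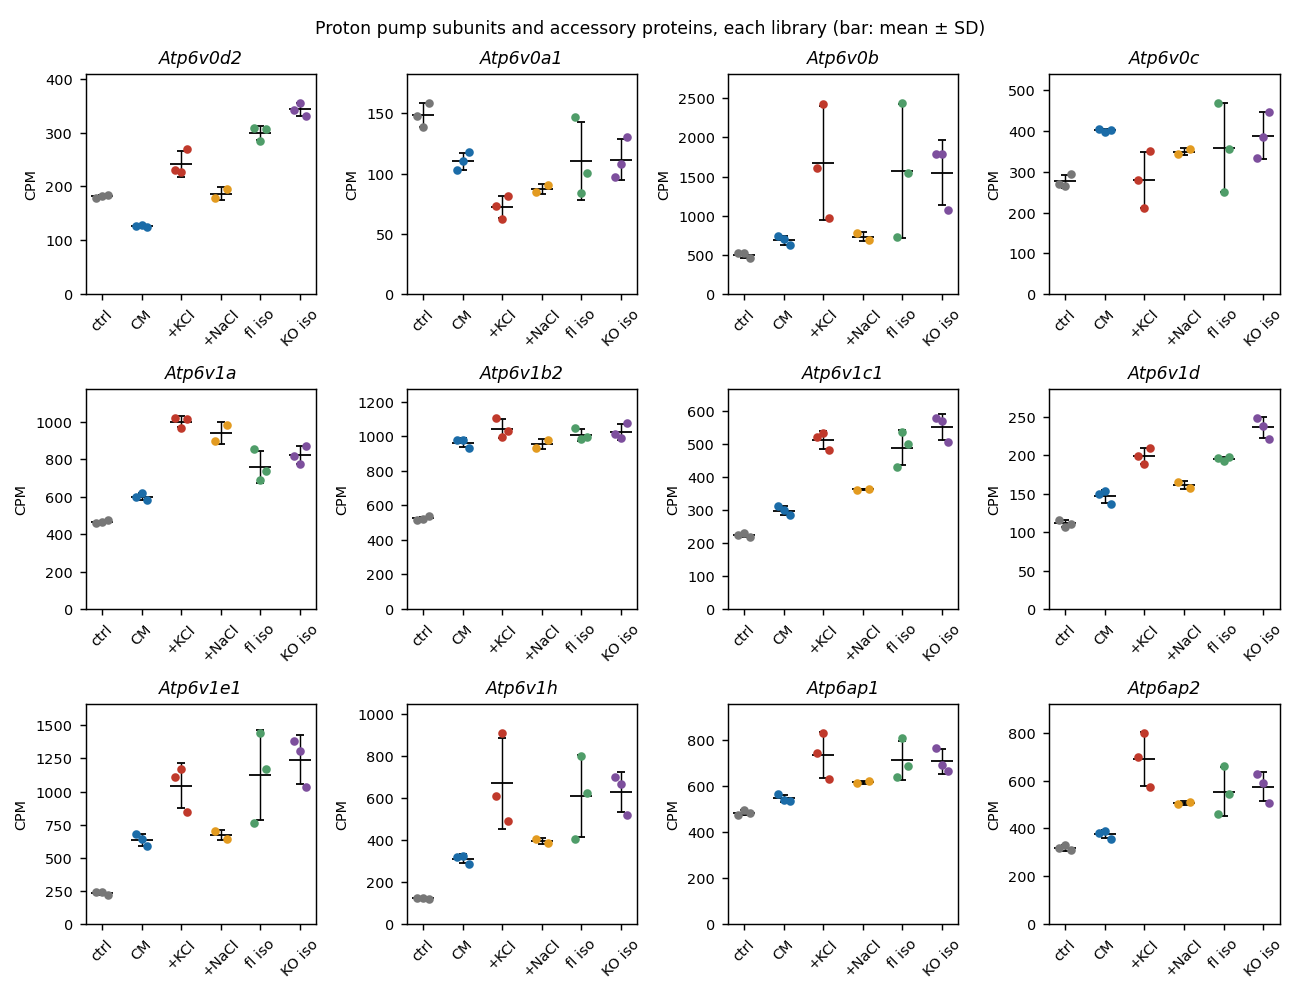
Level in CPM (y) of the 12 proton pump genes in each library (points) of the 6 groups (x), with the mean and SD of each group. Atp6v0d2 lies at 124 to 128 CPM in conditioned medium and above 226 CPM in the KCl, floxed and knockout libraries, and Atp6v0b spans 967.5 to 2423 CPM among the 3 KCl libraries.

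Of the membrane, cofactor and cargo genes, Scarb2, Grn, Mcoln1 and Gpnmb did not pass with KCl and the other 8 rose. Lamp1 was at 1813, 1826 and 1736 CPM in conditioned medium and at 2443, 2363 and 2200 CPM with KCl (0.37, SE 0.07, adjusted p = 3.47e-04). Lamp2 was at 543, 542 and 541 CPM and at 693, 767 and 654 CPM with KCl (0.37, SE 0.07, adjusted p = 5.69e-04). For both, all 3 KCl libraries were above the conditioned medium libraries, though with scaling by library totals alone Lamp2 (adjusted p = 0.0506), Ctsb, Hexa and Glb1 did not pass. The tetraspanin Cd63 rose (0.93), as did the cholesterol-handling proteins Npc2 (0.80) and Npc1 (0.65), Laptm5 (0.60) and Psap (0.43). Cd63 was 0.55 and Laptm5 0.29 with KCl library 3 alone. Mcoln1 was at 63.1, 97.3 and 52.8 CPM with KCl and 59.8, 56.0 and 60.2 CPM in conditioned medium, overlapping because KCl library 3 was the lowest of all 6. Gpnmb was at 3338, 2862 and 5349 CPM with KCl, below conditioned medium in libraries 1 and 2 and above it in library 3. From KCl library 3 alone Gpnmb rose by 0.35 (adjusted p = 4.48e-05), where all 3 KCl libraries gave −0.14 (adjusted p = 0.544).

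Among the hydrolases Ctsd was at 5418, 5140 and 5110 CPM in conditioned medium and 9564, 10150 and 7667 CPM with KCl. Every KCl library lay above every one of conditioned medium, and Ctsd rose (0.79, SE 0.09, adjusted p = 8.04e-06, and 0.56 with KCl library 3 alone). Ctsl (0.68), Ctsz (0.66), Neu1 (0.48), Ctsb (0.33), Hexa (0.31) and the galactosidase Glb1 (0.29) rose. With KCl library 3 alone Neu1 was 0.27 and Hexa 0.19. Ctsc was at 798, 813 and 818 CPM in conditioned medium and 432, 448 and 526 CPM with KCl. All KCl libraries were lower, and Ctsc fell (−0.80, SE 0.08, adjusted p = 2.52e-06, and −0.62 with KCl library 3 alone). The glucosidase Gaa fell too (−0.42). Lipa, the acid lipase, spanned 1113 to 1847 CPM with KCl and did not pass (0.35, adjusted p = 0.0624). Tfeb was at 36.5, 26.1 and 32.1 CPM, Tfe3 at 222, 183 and 208 CPM and Mitf at 181, 167 and 214 CPM with KCl. Each of the 3 overlapped its conditioned medium range. Their log2 fold changes were 0.16, 0.20 and 0.04, and with scaling by library totals alone −0.05, −0.01 and −0.17. Tfe3 passed under DESeq2 (adjusted p = 0.0217), RLE factors (0.0281), the stricter filter (0.0389), the replicate block (0.0415) and the length slope (0.0189), without KCl library 2 (0.00335) or 3 (0.0426), and with KCl library 3 alone (0.00669). Tfeb passed without KCl library 2 (0.0168), and Mitf with KCl library 3 alone (0.00525).

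**Figure D4:**
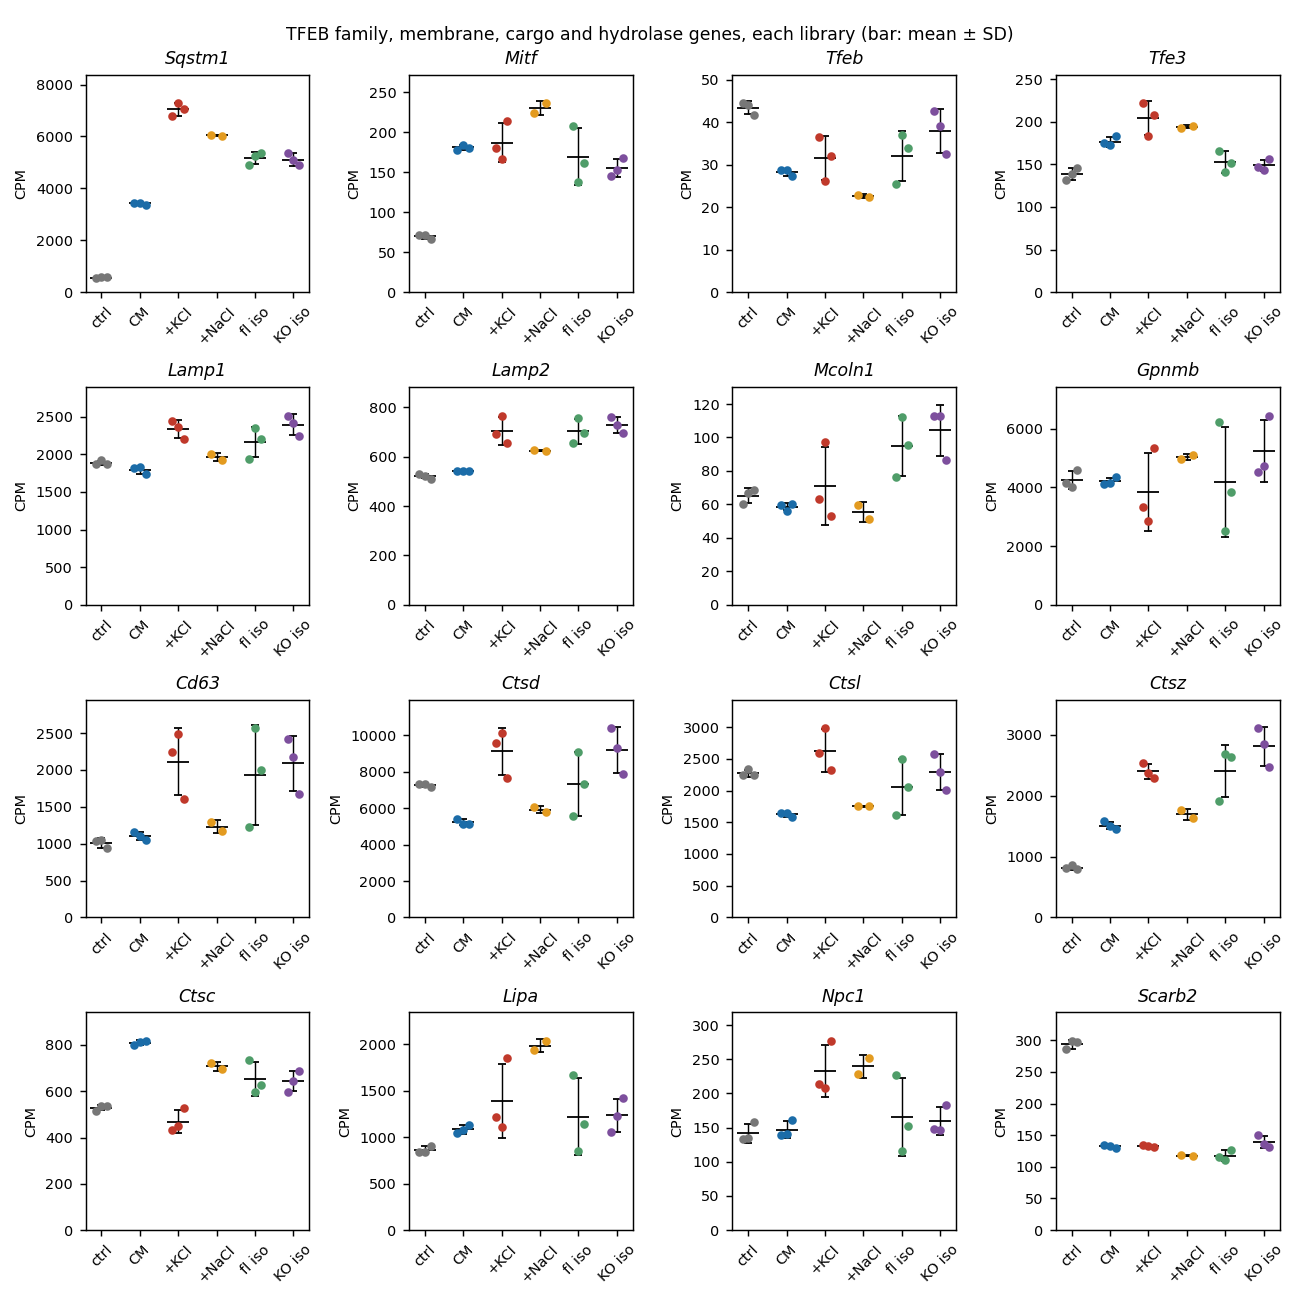
Level in CPM (y) of the transcription factors and of 13 membrane, cargo and hydrolase genes in each library (points) of the 6 groups (x), with the mean and SD of each group. Sqstm1 lies at 546 to 575 CPM in control and at 6778 to 7291 CPM with KCl, and Ctsc is at 798 to 818 CPM in conditioned medium and at 432 to 526 CPM with KCl.

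NaCl at the same 40 mM in conditioned medium is the study's counterpart for salt and osmolarity. Of the 42 genes 10 were higher and 1 lower, where 28.7% of all genes tested passed, 13.7% higher and 14.9% lower. The median log2 fold change was 0.14 over the 42 genes and −0.01 over all genes. By role, 4 pump genes were higher and 1 lower, 3 membrane and cargo genes and 2 hydrolases were higher, and so was Mitf. With only the 2 groups in the fit 24 were higher and 6 lower. More of all genes passed there too than the 4161 in the fit of all 4 groups. With the length slope as a covariate 21 were higher and 6 lower, and the share of all genes is not given for that fit. With 2 NaCl libraries, calls depended on each of them: 6 genes were higher without library 1 and 5 without library 2, and none was lower once any 1 of the 5 libraries compared was left out.

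Lipa was at 1045, 1074 and 1134 CPM in conditioned medium and 1934 and 2036 CPM with NaCl. Both NaCl libraries were well above all others of the comparison, and Lipa rose (0.88, SE 0.16, adjusted p = 0.00149). Sqstm1 was at 6065 and 6033 CPM with NaCl, above the 3374 to 3453 CPM of conditioned medium (0.83, SE 0.07, adjusted p = 1.9e-06). Npc1, the membrane protein that exports cholesterol from lysosomes, was at 139, 141 and 161 CPM in conditioned medium and 228 and 251 CPM with NaCl. It rose without overlap (0.71, SE 0.13, adjusted p = 9.58e-04). Among pump genes Atp6v1a (0.66), Atp6ap2 (0.44, adjusted p = 0.0787 without NaCl library 2) and Atp6v1c1 (0.29, lost without either NaCl library) rose. Atp6v0d2 was at 178 and 195 CPM with NaCl, above all conditioned medium libraries (0.58, SE 0.09, adjusted p = 3.43e-04). Atp6v0a1 was at 84.3 and 90.4 CPM with NaCl, below all conditioned medium libraries (−0.33, SE 0.11, adjusted p = 0.0401). Mitf was at 224.5 and 237 CPM with NaCl and 178 to 184.5 CPM in conditioned medium, and rose (0.36, SE 0.10, adjusted p = 0.0162), a call lost without conditioned medium library 1 (0.0556), NaCl library 1 (0.0601) or 2 (0.159), and with scaling by library totals alone (0.1).

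Several genes raised by KCl did not pass with NaCl in the fit of all 4 groups, but passed under alternatives. Ctsd was at 6056 and 5788 CPM (0.19, adjusted p = 0.181), Lamp1 at 2004 and 1927 CPM (0.14, adjusted p = 0.177) and Lamp2 at 625.2 and 625 CPM (0.21, adjusted p = 0.054). All these NaCl libraries were above those of conditioned medium. With only the 2 groups in the fit the adjusted p was 0.0011 for Ctsd, 0.0124 for Lamp1 and 6.38e-04 for Lamp2, and with the length slope as a covariate 3.48e-04, 0.0139 and 0.00179. Lamp2 also passed under DESeq2 (0.0144) and the stricter filter (0.0472). Tfeb was at 23.0 and 22.3 CPM, below its 27.3 to 28.7 CPM in conditioned medium (−0.31, adjusted p = 0.0775). Tfe3 (193 and 196 CPM, 0.14), Mcoln1 (59.9 and 51.3 CPM, −0.07) and Gpnmb (4959 and 5107 CPM, 0.27) did not pass either. With only the 2 groups in the fit Tfeb (adjusted p = 0.00819), Tfe3 (0.0321) and Gpnmb (2.47e-05) did, as did Tfeb with the length slope (0.0399) and Gpnmb without a low-count filter (0.0193).

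The direct comparison of KCl with NaCl tests where the salts differ. At face value 19 genes were higher with KCl and 4 lower, where 31.6% of all genes tested passed, 15.4% higher and 16.2% lower, with a median of 0.20 over the 42 genes and −0.04 over all genes. By role, 7 pump genes, 6 membrane, cofactor and cargo genes, 5 hydrolases and Tfeb were higher, and 3 hydrolases and Mitf were lower (Mitf −0.32, and −0.11 at an adjusted p of 0.354 with KCl library 3 alone). These calls were the least stable. With only the 2 groups in the fit none of the 42 genes and 8 genes in all passed (edgeR, with 29 of the 42 at an unadjusted p under 0.05 in the fit of all 4 groups), and with the length slope as a covariate 2 were higher and none lower.

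Atp6v0b was at 775 and 691 CPM with NaCl against 1615, 2423 and 967.5 CPM with KCl, without overlap (1.17, SE 0.28, adjusted p = 0.0124). Cd63 was at 1292 and 1167 CPM with NaCl and 2247, 2486 and 1609 CPM with KCl (0.76, SE 0.14, adjusted p = 0.00291). Atp6v1h was at 405 and 386.5 CPM with NaCl and 489 to 910.3 CPM with KCl (0.74, SE 0.19, adjusted p = 0.0128). In all 3 genes KCl library 3, whose length slope was nearest to that of the NaCl libraries, was the lowest KCl library and still above both NaCl libraries, at log2 fold changes of 0.40, 0.39 and 0.31. With the slope as a covariate they were −0.21, 0.04 and −0.09. Without NaCl library 2 none of the 3 passed (adjusted p = 0.0982, 0.0502 and 0.0978). Atp6v0d2 was the exception in this respect: it was 0.36 (SE 0.09, adjusted p = 0.0113) over all libraries, 0.53 with KCl library 3 alone and 0.64 (adjusted p = 0.00588) with the covariate. Its call was lost without NaCl library 1 (0.131) or 2 (0.0554), with scaling by library totals alone (0.136) and in the fit of the 2 groups (0.122).

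Of the genes lower with KCl, Ctsc was at 722 and 694 CPM with NaCl and 432, 448 and 526 CPM with KCl. All KCl libraries were lower (−0.61, SE 0.09, adjusted p = 8.32e-04, −0.43 with KCl library 3 alone, and −0.38 at an adjusted p of 0.107 with the covariate). Lipa was at 1934 and 2036 CPM with NaCl and at 1212, 1113 and 1847 CPM with KCl, the third KCl library lying near NaCl (−0.53, SE 0.16, adjusted p = 0.0282, and −0.10 with that library alone). Tpp1, the tripeptidyl peptidase, was at 191 and 182 CPM with NaCl and 133, 139 and 160.5 CPM with KCl (−0.39, SE 0.10, adjusted p = 0.0108, and −0.21 at 0.0882 with KCl library 3 alone). The calls on Lipa and Tpp1 were lost without either NaCl library, and that on Lipa also without KCl library 1 or 2. Atp6v1a (0.07, SE 0.08) and Npc1 (−0.06, SE 0.13) did not pass between the salts.

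The floxed cells in conditioned medium with isotonic KCl were set beside C57BL/6J cells in conditioned medium. Here strain, isotonic KCl and the cells' preparation cannot be told apart. Of the 42 genes 20 were higher and 1 lower, where 15.3% of 14676 genes tested passed, 8.2% higher and 7.09% lower, with a median of 0.25 against −0.01 over all genes. Higher were 9 of 12 pump genes, 7 of 12 membrane, cofactor and cargo genes and 4 of 15 hydrolases, and none of the transcription factors passed. Atp6v0d2 was at 309, 285 and 306 CPM in floxed cells against 124 to 128 CPM in conditioned medium. Its libraries were close together and far above those of conditioned medium, and it was the gene with the highest fold change (1.25, SE 0.08, adjusted p = 2.2e-07, and 1.31 with floxed library 1 alone). Sqstm1 was at 4917, 5234 and 5356 CPM, above conditioned medium and below both salt groups (0.60 against conditioned medium, adjusted p = 5.13e-05).

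Atp6v0b was at 727, 2444 and 1543 CPM in floxed cells, and its first library lay within the conditioned medium range of 627 to 741 CPM (1.19, SE 0.36, adjusted p = 0.0362). Atp6v1h was at 407, 799.6 and 623 CPM (0.97, SE 0.22, adjusted p = 0.00917), all above conditioned medium. With floxed library 1 alone, assumed to vary like the other groups, these were 0.09 (adjusted p = 0.939) and 0.40 (adjusted p = 0.412), and 8 of the 42 genes were higher and none lower. Mcoln1 was at 76.2, 112 and 95.8 CPM against 56.0 to 60.2 CPM in conditioned medium, without overlap (0.69, SE 0.19, adjusted p = 0.0243, and 0.39 at 0.444 with floxed library 1 alone). Ctsc was at 735, 596 and 628 CPM, below the 798 to 818 CPM of conditioned medium (−0.31, SE 0.09, adjusted p = 0.0379, and −0.13 at 0.635 with floxed library 1 alone). Lamp1 (1944, 2350 and 2200 CPM), Lamp2 (655, 758 and 695 CPM) and Ctsd (5548, 9068 and 7338 CPM) were higher (0.27, 0.38 and 0.49). In all 3 of these floxed library 1 was the lowest of its group, and with it alone they were 0.13 (adjusted p = 0.554), 0.28 (0.117) and 0.097 (0.8). The calls on Atp6v0b, Lamp1, Ctsd, Mcoln1 and Ctsc were lost without any 1 conditioned medium library. With only the 2 groups in the fit 3 genes were higher and none lower, and those calls, on Sqstm1, Atp6v1c1 and Atp6v0d2, held under every alternative tried.

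**Figure D5:**
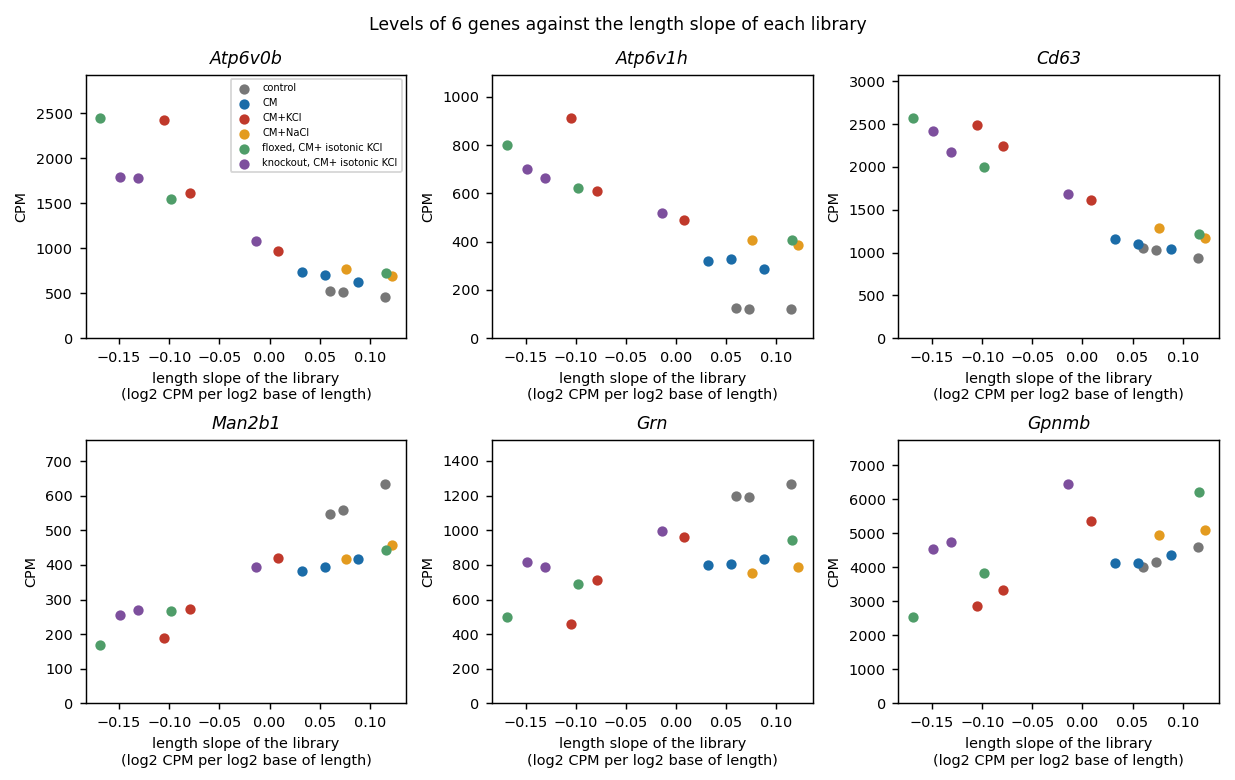
Level in CPM (y) of 6 genes against the length slope of each of the 17 libraries (x), coloured by group. Atp6v0b, Atp6v1h and Cd63 are high and Man2b1 low in the libraries with the lowest slopes, among them KCl library 2 (−0.105) and floxed library 2 (−0.169). Grn is lowest in those 2 libraries, but at 817 and 788 CPM in knockout libraries 1 (−0.149) and 2 (−0.131).

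Knockout cells were compared with floxed cells, both in isotonic KCl. The knockout cells also carried Lyz2-Cre, and no group carried Cre alone. Loss of Kcnj2, the Cre driver and the cells' preparation therefore cannot be told apart here. Kcnj2 was at 19.7, 24.4 and 29.4 CPM in knockout and 173, 139 and 147 CPM in floxed libraries, so the libraries followed their labels (log2 fold change −2.64, SE 0.19, adjusted p = 0.015). Lyz2, whose locus carries the Cre driver, was at 7648 ± 638 CPM in knockout and 22460 ± 2390 CPM in floxed cells (n = 3 and 3, −1.55, adjusted p = 0.0593). None of the 42 genes passed, in a comparison in which 2 of 12782 genes (0.0156%) did, 1 higher and 1 lower (0.00782% each). At an unadjusted p under 0.05 there were 4 of the 42 and 716 of all genes. DESeq2 called 122 genes and none of the 42. The log2 fold change was above 0 for 35 of the 42 genes (83.3%) and for 49.4% of all genes, with a median of 0.14 against −0.0027 and a range of −0.12 to 0.35.

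Atp6v0d2 was at 343, 355 and 331 CPM in knockout cells, all above the 285 to 309 CPM of floxed cells (0.20, SE 0.11, edgeR adjusted p = 1). Gpnmb was at 4526, 4748 and 6451 CPM in knockout and 6216, 2526 and 3836 CPM in floxed cells, overlapping widely (0.33, SE 0.33). Sqstm1 was at 5365, 5072 and 4893 CPM in knockout and 4917, 5234 and 5356 CPM in floxed cells, overlapping (−0.01, SE 0.12). The highest fold change of the list was that of Ctsh, an aminopeptidase, at 381, 377 and 371 CPM in knockout and 288, 291 and 310 CPM in floxed cells (0.35, SE 0.11, adjusted p = 0.508). Ctsd was at 10400, 9300 and 7862 CPM in knockout cells (0.33, SE 0.21), Lamp1 at 2516, 2420 and 2248 CPM (0.15, SE 0.13), Lamp2 at 760, 728 and 695 CPM (0.05, SE 0.12) and Mcoln1 at 113, 113 and 86.8 CPM (0.14, SE 0.18). All 4 overlapped the floxed range. Tfeb was at 42.5, 39.1 and 32.4 CPM, Tfe3 at 146.5, 144 and 157 CPM and Mitf at 145, 153 and 168 CPM in knockout cells, each overlapping floxed cells as well. With the length slope as a covariate, 16 of the 42 genes were higher in knockout cells and none lower (955 genes in all), among them Gpnmb (0.59, adjusted p = 2.59e-04), Ctsd (0.24, adjusted p = 0.00445) and Atp6v0d2 (0.20, adjusted p = 0.0246). Knockout library 3 against floxed library 1, fitted with the 11 C57BL/6J libraries for the spread, gave none of the 42 genes and 39 genes in all, with Gpnmb at 0.055, Ctsd at 0.50 and Atp6v0d2 at 0.10.

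Genes of the same pathways outside the list were counted from lists of other lysosomal genes, other pump genes, regulators of the transcription factors and autophagy genes. In conditioned medium against control, 19 of 68 other lysosomal genes were higher and 28 lower, where 27.2% and 26.4% of all genes were, from the calcium channel Mcoln2 (3.13) to the sulfamidase Sgsh (−3.64). Of 15 other pump genes 4 were higher, such as Atp6v0d1 (0.77), and 2 lower. Of 23 regulators 9 were higher and 4 lower, among them Tfec (3.17), a further member of the TFEB family, and the Ragulator subunit Lamtor4 (−1.07). Of 28 autophagy genes 10 were higher and 11 lower, with the receptor Optn at 1.03 and Uvrag at −1.37.

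With KCl against conditioned medium, where 26.6% of all genes were higher and 27.4% lower, other pump genes had 7 of 15 higher and 2 lower, among them the membrane-sector subunit Tcirg1 (1.17) and the peripheral subunit Atp6v1f (1.06). Other lysosomal genes had 23 of 68 higher and 27 lower, among them the galactosidase Gla (1.09) and the lysosomal potassium and proton channel Tmem175 (−2.14). The median of that wider list was −0.04. Regulators had 12 of 23 higher and 6 lower, among them the folliculin partner Fnip2 (1.40), the calcineurin subunit Ppp3ca (1.18) and Tsc2 (−0.91). Autophagy genes had 15 of 28 higher and 5 lower, with Map1lc3a (1.19), Atg12 (1.00) and Atg9a (−1.34). With KCl library 3 alone Atp6v1f was 0.56, Ppp3ca 0.21, Tsc2 −0.32, Map1lc3a 0.76 and Atg9a −0.44.

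With NaCl against conditioned medium, where 13.7% of all genes were higher and 14.9% lower, the counts were 10 higher and 15 lower of 68 other lysosomal genes, 3 and 1 of 15 pump genes, 6 and 2 of 23 regulators and 9 and 2 of 28 autophagy genes. Mcoln2 (1.12), Fnip2 (0.83), Tfec (0.82) and Gabarapl1 (0.89) were among the higher, and Tmem175 (−1.31) and Lamtor1 (−0.78) among the lower. With KCl against NaCl (15.4% and 16.2% of all genes), 13 were higher and 15 lower of other lysosomal genes, 5 and 1 of pump genes, 8 and 1 of regulators and 6 and 1 of autophagy genes, among them Lamtor4 (1.46) and Ppp3ca (1.42), which were 0.62 and 0.45 with KCl library 3 alone. With that library the counts were 10 and 6, 5 and 0, 6 and 0, and 8 and 0. In floxed cells against conditioned medium (8.2% and 7.09% of all genes), 11 were higher and 5 lower of other lysosomal genes, 7 and 0 of pump genes, 9 and 0 of regulators and 6 and 1 of autophagy genes, with Atp6v1f at 1.04 and Fnip2 at 1.06. With floxed library 1 alone Atp6v1f was 0.18 (adjusted p = 0.787), and the counts were 8 and 2, 2 and 0, 6 and 0, and 4 and 0. Between knockout and floxed cells none of these lists had a called gene.

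Genes with the CACGTG core in their promoter window were called at the following counts. The shares of all genes tested are not limited to genes with a window. With KCl against conditioned medium 6 of the 9 were higher and 1 lower, beside 13 of 26 higher and 3 lower among those whose window lacked it. Of the 7 genes without a window 5 were higher, and of all genes 26.6% were higher and 27.4% lower. In conditioned medium against control 1 of the 9 was higher and 2 lower, beside 9 and 8 of 26. Without a window 3 and 3 of 7 were, and of all genes 27.2% and 26.4%. With NaCl against conditioned medium 1 of the 9 was higher, namely Atp6v1a, beside 5 higher and 1 lower of 26. Without a window 4 of 7 were higher, and of all genes 13.7% were higher and 14.9% lower. With KCl against NaCl 4 of the 9 were higher, beside 12 higher and 4 lower of 26. Without a window 3 of 7 were higher there, and of all genes 15.4% were higher and 16.2% lower. In floxed cells against conditioned medium 5 of the 9 were higher, beside 11 higher and 1 lower of 26. Without a window 4 of 7 were higher, and of all genes 8.2% were higher and 7.09% lower. Lamp1, Ctsd, Atp6v0b and Atp6v1a, whose matches are shown above, were higher both with KCl and in floxed cells. These comparisons share the conditioned medium libraries. Each of these floxed calls was lost with only the 2 groups in the fit. Those on Lamp1, Ctsd and Atp6v0b were also lost without any 1 conditioned medium library, and that on Atp6v1a without conditioned medium library 1 or 3. Any link between the matches and these calls was not tested. Gaa, with 1 match, fell with KCl.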

How the data were processed

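Macrophage RNA was sequenced in 17 libraries. The authors deposited 1 table of raw counts, by Ensembl gene and library, used unaltered. DESeq2 1.30.1 appears in the submitters' processing notes without a role. The aligner, the counter, the genome build and any use of strand were not given in the sources used here. Symbols, exon lengths and overlaps came from GENCODE M21 (55141 of 55401 identifiers matched).

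Counts were tested with edgeR 4.0.16 in R 4.3.3 (TMM, default low-count filter, robust quasi-likelihood F test, Benjamini-Hochberg over all genes tested, threshold 0.05). The 11 C57BL/6J libraries shared 1 fit, the 6 isotonic libraries another, and floxed cells against conditioned medium used all 17. The code was tested on simulated data. Library totals ran from 13503869 to 19391623, and a gene at 0 counts is below 3 counts there, for counting error only. Separate animals or cultures are not stated for replicates, so each p-value reflects the spread of these samples alone, and that spread may be technical. Every replicate pair differed beyond sampling noise (chi-square over degrees of freedom from 2.05 to 133).

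Genes and lists were chosen with earlier results of these data known. Per-sample values are given for Atp6v0d2, Gpnmb, Sqstm1, Tfeb, Tfe3, Mitf, Lamp1, Lamp2, Ctsd, Mcoln1 and the 3 highest and 3 lowest called genes per comparison with at least 10 CPM in a group, and for Ctsh in the knockout, chosen after its values were seen. From the other lists up to 3 called genes in each direction could be named, at the same minimum. Alternatives were DESeq2 1.42.0, RLE factors, library totals alone, no or a stricter low-count filter (a mean of 20 counts, with 1 CPM in 3 libraries), only the 2 groups compared, the replicate number as a block, the length slope as a covariate and each library left out. Fits with only KCl library 3, only floxed library 1, or only floxed library 1 and knockout library 3 were chosen after seeing the data.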

Additional observations from a re-analysis of the deposited data

How the results depend on the processing

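Of the calls, those that held under every alternative were 7 of 13 higher and 10 of 13 lower in conditioned medium against control, 16 of 24 and 2 of 4 with KCl, 5 of 10 and 0 of 1 with NaCl, 0 of 19 and 0 of 4 between the salts, and 3 of 20 and 0 of 1 in floxed cells. For each count or value that moved, the cause was not tested. Counts below are of the 42 genes unless all genes are named.

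With scaling by library totals alone, 7 were higher and 20 lower in conditioned medium against control, 9 were lower with KCl, 2 lower with NaCl, 12 higher between KCl and NaCl, and 12 higher and 4 lower in floxed cells. The median of all genes moved to −0.37 in conditioned medium, −0.22 with KCl, and −0.18 both between the salts and in floxed cells. Log2 fold changes that turned under it were Neu1 (−0.077) and Lamp2 (−0.29) in conditioned medium and Tfe3 (−0.0089), Tfeb (−0.052) and Mitf (−0.17) with KCl.

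With the length slope as a covariate, 2 were lower with KCl (5219 of all genes called), 21 higher and 6 lower with NaCl, 2 higher and 0 lower between the salts (231 of all genes), 16 higher in the knockout (955 of all genes) and 2 lower in floxed cells. Values that turned were Gpnmb (0.12) in conditioned medium, Mcoln1 (−0.25) and Gpnmb (0.49) with KCl, Mcoln1 (0.091) with NaCl, Lipa (0.21), Atp6ap2 (−0.041), Atp6v0b (−0.21) and Atp6v1h (−0.092) between the salts, and Tfe3 (0.0071) in the knockout.

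With only the 2 groups compared, 24 were higher and 6 lower with NaCl (6245 of all genes), 0 higher and 0 lower between the salts (8 of all genes), and 3 higher and 0 lower in floxed cells (411 of all genes). Without a low-count filter 7 were lower with KCl, 8 lower between the salts and 0 lower in floxed cells, and 12 of all genes passed in the knockout, where DESeq2 called 122.

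With the replicate number as a block, 7 were lower with KCl, 8 were lower between the salts, and 0 of all genes passed in the knockout; the other counts moved by less than 1.5 times. Same-numbered C57BL/6J samples correlated above 0.1 in 4 of 15 pairs and differently numbered ones in 3 of 30, and for the isotonic samples these were 1 of 3 and 4 of 6, so the numbers were not taken to pair samples.

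The fits that follow were chosen after seeing the data. With only KCl library 3, 1 was lower between the salts (2359 of all genes), and with KCl Mcoln1 was −0.15 and Gpnmb 0.35. With only floxed library 1, 8 were higher and 0 lower (729 of all genes). With only floxed library 1 and knockout library 3, 39 of all genes and 0 of the 42 passed.

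Leaving out 1 library at a time gave 12 to 13 higher, 10 to 11 lower and 6755 to 6867 of all genes in conditioned medium, and 24 to 27, 4 to 10 and 6809 to 8840 with KCl. It gave 5 to 8, 0 to 0 and 2224 to 3465 with NaCl, 5 to 22, 1 to 9 and 960 to 6989 between the salts, and 10 to 23, 0 to 3 and 1081 to 5589 in floxed cells. In the knockout 0 to 14 of all genes passed and 0 of the 42. Values that turned were Gpnmb in conditioned medium (−0.073 to 0.041, above 0 without control library 3), Mcoln1 (−0.022 to 0.43) and Gpnmb (−0.45 to 0.044) with KCl, both turning without KCl library 2, Mitf with KCl (−0.069 to 0.12, below 0 without KCl library 3) and Mcoln1 with NaCl (−0.18 to 0.029, above 0 without NaCl library 2). In the knockout they were Tfe3 (−0.089 to 0.025), Mitf (−0.25 to 0.047) and Lamp2 (−0.0013 to 0.11), turning without floxed library 1, and Sqstm1 (−0.055 to 0.027), above 0 without floxed library 3 or knockout library 3. Where 1 library was left in a group, it was assumed to vary like the other groups.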
